A study of Mus musculus with 6 samples.

Results

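The genes of the activin, BMP and TGF-beta pathway were compared in ER-negative luminal cells of the mouse mammary gland with and without Sox9. The 41 genes were chosen by name, with earlier results of these data known. They hold 13 ligands, 6 secreted antagonists, 11 receptors, 8 Smads and 3 Id target genes. A probe set carrying the gene's symbol was found for 40 of them, 1 probe set for each gene, among 19505 named genes and 22206 probe sets tested on the arrays. Gdf15, a stress-induced ligand, was not analysed here.

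The WT cells came from 3 mice with floxed Sox9 alleles and no Cre (Sox9Fl/Fl), and the Sox9 KO cells from 3 mice that carried the MMTV-iCre transgene as well (MMTV-iCre; Sox9Fl/Fl). Both groups therefore carried the floxed alleles, and every mouse was a female of 8 to 12 weeks in diestrus, on a mixed C57BL/6J and FVB/NJ background according to the methods of the study. Cells were sorted from each animal on its own without lineage markers or Sca1, with high EpCAM and low CD49f. The Sox9 KO sort also required ECFP, a reporter that Cre switches on, and the MMTV promoter that drives Cre is active in only a part of the mammary epithelium. Each of the following marks all 3 Sox9 KO samples and no WT sample, so they cannot be told apart: loss of Sox9, Cre itself and sorting on ECFP. RNA was measured on Affymetrix Clariom S Pico arrays, 1 per animal, and all values below are log2 signals, on which a difference of 1 is a 2-fold difference in signal.

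Ligands of this family reach the cell as dimers and bring together type I and type II receptor kinases, which phosphorylate receptor-regulated Smads. Smad2 and Smad3 carry activin and TGF-beta signals, Smad1, Smad5 and Smad9 carry BMP signals, and both arms share Smad4, while Smad6 and Smad7 inhibit the receptors. Outside the cell, follistatin traps activins and noggin, gremlin and chordin trap BMPs. In the mammary gland TGF-beta is known as a brake on ductal growth, and the Id genes are well-known targets of BMP signalling that encode inhibitors of basic helix-loop-helix factors.

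Of the 4 promoter stretches below, each is the 250 bases before the RefSeq start of the gene with the smallest p of its role among those with a promoter entry and an unadjusted p under 0.05, on build GRCm38.p6, written 5′ to 3′ on the gene's own strand. They stand for a ligand, an antagonist, a receptor and a Smad that had lower signals in Sox9 KO, so that words bound by SOX factors or Smads can be seen in place. Capitals mark the SOX words ACAAAG or ACAAT and the Smad words CAGAC or GGCGCC, on either strand, and words may overlap. The Tgfb2 stretch lies at chr1:186705990-186706239 on the minus strand, Fstl3 at chr10:79777024-79777273 on the plus strand, Acvr1 at chr2:58566829-58567078 on the minus strand and Smad3 at chr9:63757995-63758244 on the minus strand.
Tgfb2: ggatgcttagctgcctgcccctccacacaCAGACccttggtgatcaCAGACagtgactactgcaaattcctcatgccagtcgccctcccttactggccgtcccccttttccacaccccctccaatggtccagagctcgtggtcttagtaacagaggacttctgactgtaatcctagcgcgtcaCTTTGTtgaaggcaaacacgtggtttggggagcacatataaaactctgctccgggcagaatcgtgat
Fstl3: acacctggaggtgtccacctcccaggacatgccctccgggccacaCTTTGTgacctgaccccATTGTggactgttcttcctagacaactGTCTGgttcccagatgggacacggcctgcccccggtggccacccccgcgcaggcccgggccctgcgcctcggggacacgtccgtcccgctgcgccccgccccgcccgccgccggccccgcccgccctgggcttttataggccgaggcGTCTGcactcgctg
Acvr1: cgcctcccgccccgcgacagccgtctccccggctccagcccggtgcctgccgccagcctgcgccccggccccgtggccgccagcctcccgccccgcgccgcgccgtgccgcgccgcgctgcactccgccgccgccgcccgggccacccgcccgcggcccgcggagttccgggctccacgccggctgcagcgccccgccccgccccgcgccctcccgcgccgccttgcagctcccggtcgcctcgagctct
Smad3: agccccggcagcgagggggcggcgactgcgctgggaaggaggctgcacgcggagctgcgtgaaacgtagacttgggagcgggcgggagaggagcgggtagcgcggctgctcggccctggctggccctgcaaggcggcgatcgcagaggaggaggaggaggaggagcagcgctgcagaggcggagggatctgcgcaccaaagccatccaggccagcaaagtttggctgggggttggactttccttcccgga

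The Tgfb2 stretch held 1 ACAAAG word and 2 CAGAC words, and the Fstl3 stretch held 1 ACAAAG word, 1 ACAAT word and 2 CAGAC words. None of these words lay in the Acvr1 or Smad3 stretches. Promoters of this length were found for 29 of the 40 measured genes, 35 promoters in all, and Fst, Id1, Bmp3, Smad2 and Smad7 were not among them. The word ACAAAG lay in 34.3% of these 35, against 16.5% of the 32851 promoters of all genes. For the word ACAAT the shares were 22.9% and 27.7%. The word CAGAC lay in 40% against 42.2%, and the word GGCGCC in 22.9% against 9.59%. Some genes have several promoters, and those of Bmpr1b at its starts 2 and 3 overlap and share words. Counted by gene, ACAAAG lay in 9 of the 29, ACAAT in 6, CAGAC in 13 and GGCGCC in 8. A match is a short run of letters and not a bound site, and no test was made on these shares.

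Sox9 itself checks the labels. Its signal was 11.60, 11.54 and 11.47 in WT and 6.73, 7.84 and 7.51 in Sox9 KO. Sox9 fell by 4.18 on the log2 scale (SE 0.27, n = 3 each, adjusted p = 0.00867 in limma), and on all 3 Sox9 KO arrays it lay under the 95th percentile of the negative control probe sets. Against that bar the signal was at least 11.6-fold lower in Sox9 KO. Without WT replicate 1, 2 or 3 in turn the adjusted p was 0.0627, 0.147 and 0.0943, with differences of -4.14, -4.18 and -4.21. Whether its probes lie in the deleted part of the gene is not known here.

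The 5222 negative controls set a bar for signal above background, their 95th percentile, which lay between 7.75 and 8.58 on the 6 arrays. Of the 40 pathway genes, 11 lay above the bar on every array, 21 below it on every array and 8 on some arrays only. Of 10 listed markers of ER-negative luminal cells, all 10 were measured and 8, Kit and Sox10 among them, lay above the bar on all 6 arrays. The mean of the 10 stood at -0.47, -0.12 and -0.19 against WT on the Sox9 KO arrays. Of the 10, 5 had an unadjusted p under 0.05 in limma, or 50%, against 9.26% of all probe sets. Itga2, Aldh1a3, Ltf and Csn3 were lower and Gabrp higher, and 0 of the 10 had an adjusted p under 0.05. The part of this marker shift in the pathway results was not tested. Some of the other marker lists set single arrays apart. The 5 measured of 8 ER-positive luminal markers stood 1.33 above the WT mean on WT replicate 3, against -0.93 to -0.61 on the other 5 arrays. The 8 measured of 10 fibroblast markers stood 1.47 above it on Sox9 KO replicate 3, against -0.24 to 0.38 elsewhere. The 9 measured of 10 proliferation markers stood 3.24 above it on Sox9 KO replicate 1, against -0.32 to 0.99 elsewhere. Endothelial and adipocyte markers were highest on WT replicate 1, at 0.69 and 0.48, with Sox9 KO replicate 3 next at 0.43 and 0.24. Immune markers were highest on Sox9 KO replicate 3, at 0.38. All 6 endothelial and all 8 measured immune markers lay below the bar on every array. Basal markers, all 10 measured, ranged from -0.42 to 0.27 in WT, and on Sox9 KO replicates 1, 2 and 3 they were at 0.31, 0.85 and 0.75. These values are set beside the genes below that moved with them.

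**Figure D1:**
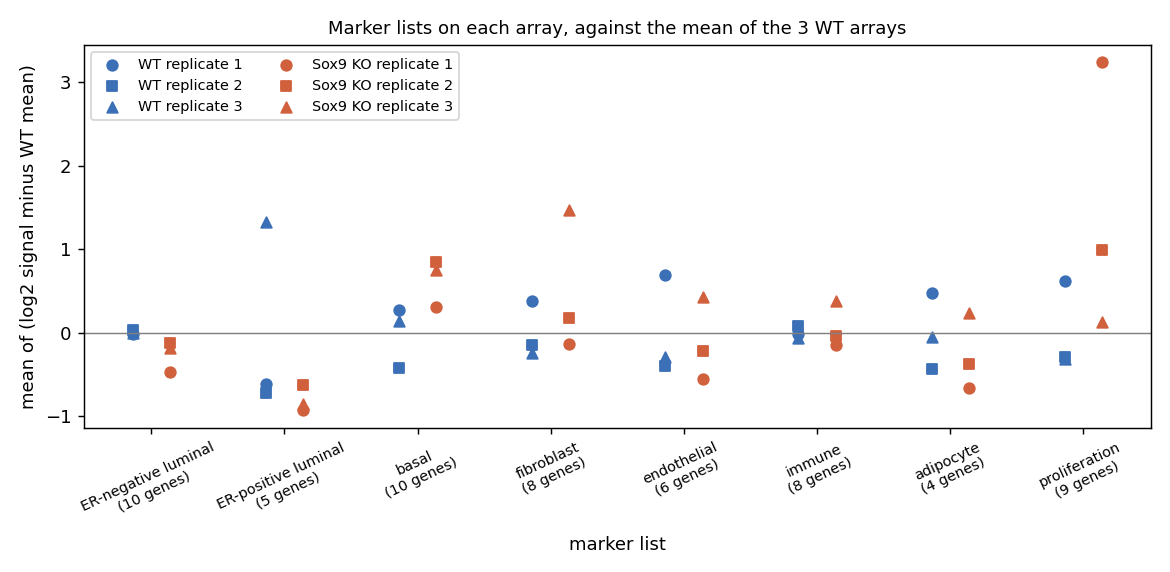
Mean level of each marker list on each array, as log2 signal minus the mean of the 3 WT arrays (vertical axis), for 8 lists with the number of measured genes in brackets. WT replicate 3 stands at 1.33 for ER-positive luminal markers, Sox9 KO replicate 3 at 1.47 for fibroblast markers and Sox9 KO replicate 1 at 3.24 for proliferation markers.

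The Sox9 KO arrays had a higher follistatin signal, a lower Tgfb2 signal and lower Smad2 and Smad3 signals than WT. Smad7 was also lower, but below the bar on every array. No pathway gene passed the adjusted threshold with all arrays in the fit. At an adjusted p under 0.05 limma called 0 of the 40, and 2 of the 22206 probe sets, or 0.00901%. An unadjusted p under 0.05 was reached by 11 of the 40 pathway genes, or 27.5%, against 9.26% of all probe sets. Without WT replicate 2 these were 9 genes and 5.63% of all probe sets. Of the 11, 8 were lower in Sox9 KO, where 4.99% of all probe sets were, and 3 were higher, where 4.28% were. The fitted difference was also over 2-fold for Fst, Tgfb2 and Id1, 3 of 40 genes against 1.14% of all probe sets, but of these only Tgfb2 lay above the bar in both groups. The signals of the groups did not overlap for 14 of the 40 genes, 10 lower and 4 higher in Sox9 KO. This was 35%, against 14.1% of all probe sets. Because the genes were chosen with earlier results of these data known, none of these shares was tested. The median difference over the 40 genes was -0.08, against 0.01 over all probe sets. With the dimmer probe sets left out it was -0.21 over 27 genes, against -0.00 over the probe sets that stayed. In sorted cells measured in bulk, fewer cells expressing a gene and less RNA per cell cannot be told apart.

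**Figure D2:**
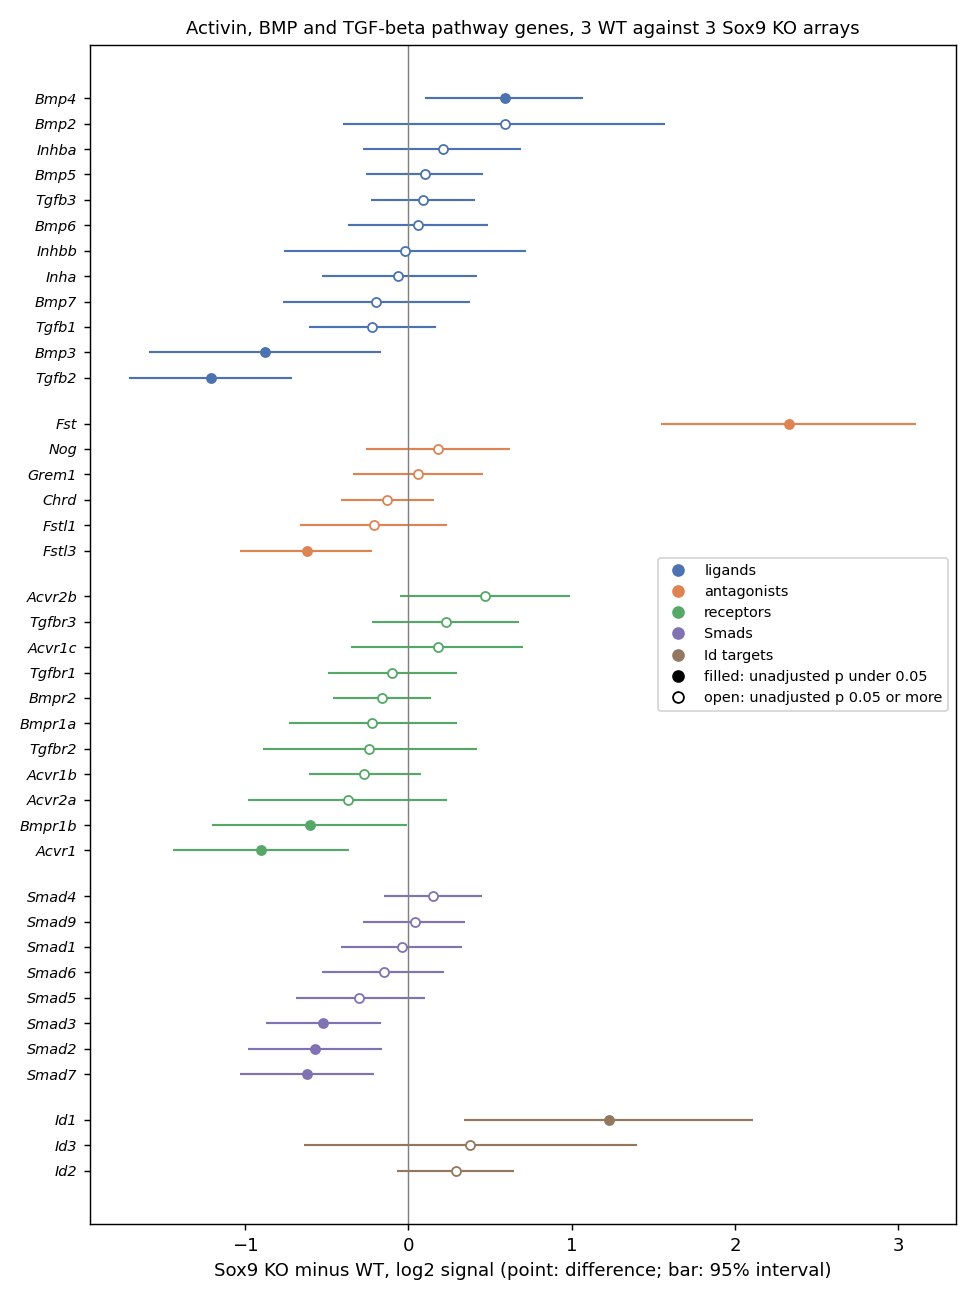
Difference in log2 signal, Sox9 KO minus WT (horizontal axis), with its 95% interval from limma for the 40 measured genes, grouped by role (colours), n = 3 arrays per group. Filled points mark the 11 genes with an unadjusted p under 0.05, which reach from Tgfb2 at -1.21 to Fst at 2.33.

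Of the antagonists, Fst was higher and Fstl3 lower in Sox9 KO, each with an unadjusted p under 0.05. Fst encodes follistatin, a secreted protein that binds activins tightly and keeps them from their receptors. Its signal was 7.23, 6.77 and 6.78 in WT and 8.45, 9.56 and 9.77 in Sox9 KO. Every Sox9 KO array lay above every WT array, by more than 1 log2 unit at the nearest. The difference was 2.33 (SE 0.34, 95% interval 1.55 to 3.11), with an adjusted p of 0.19 in limma. All WT signals lay below the bar and all Sox9 KO signals above it, and measured against the bar Fst was at least 1.97-fold higher in Sox9 KO, a bound set by background. Without Sox9 KO replicate 1, the array with the high proliferation markers and the lowest Fst signal of its group, the difference was 2.74 and Fst rose past the threshold (adjusted p = 0.011). Over all alternatives tried, the difference ranged from 2.08 to 2.74 and the adjusted p from 0.011 to 0.55. The mean of the basal markers was also higher in Sox9 KO, most on replicates 2 and 3, and its part in this result was not tested. Of the 10 basal markers, 3 had an unadjusted p under 0.05, or 30%, against 9.26% of all probe sets. These were Krt14, Krt17 and Trp63, all higher, where 4.28% of all probe sets were. The adjusted threshold was passed by 0 of the 10, and their median difference was 0.19. On Sox9 KO replicates 1, 2 and 3 the keratin Krt14 had signals of 11.08, 10.85 and 10.63. The basal transcription factor Trp63 had 8.76, 8.74 and 8.27. The keratin Krt17 had 7.09, 7.76 and 7.91, and like Fst it was lowest on replicate 1. Krt14, Trp63 and Krt17 differed by 2.57 (SE 0.39), 1.99 (SE 0.38) and 1.15 (SE 0.30). Tagln, a smooth muscle gene, differed by -0.20 (SE 0.42) and Oxtr by 0.54 (SE 0.36). Among the Sox9 KO arrays, Tagln and Oxtr were also lowest on replicate 1, where Krt14 and Trp63 were highest. Oxtr lay above the bar on 1 Sox9 KO array only, and Krt5, Acta2, Myh11, Mylk and Cnn1 lay below the bar on every array.

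Fstl3, a follistatin relative that also binds activins, had signals of 7.66, 7.91 and 8.0 in WT and 6.95, 7.29 and 7.46 in Sox9 KO. The groups did not overlap, and the difference was -0.62 (SE 0.18, 95% interval -1.03 to -0.22, adjusted p = 0.361). Its signal lay above the bar on 1 WT array and on 0 Sox9 KO arrays, so no fold is given. The 2 follistatin-type activin binders thus differed in opposite directions, each with groups that did not overlap. Fstl1, a more distant relative, differed by -0.21 (SE 0.19) with overlapping groups. Of the BMP traps, chordin (Chrd) had signals of 5.40, 5.46 and 5.46 in WT and 5.24, 5.34 and 5.36 in Sox9 KO, which did not overlap but differed by only -0.13 (SE 0.12). Noggin (Nog) and gremlin (Grem1) differed by 0.18 (SE 0.19) and 0.06 (SE 0.17). All 3 BMP traps lay below the bar on every array, so that their signals could not be separated from background.

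Of the 12 measured ligands, Tgfb2 had the smallest p, and whether its difference exceeds those of the other TGF-beta isoforms was not tested. It encodes TGF-beta 2, a growth inhibitor of epithelia, and its signal was 9.83, 10.22 and 9.37 in WT and 8.54, 8.55 and 8.70 in Sox9 KO. The groups did not overlap, all 6 signals lay above the bar, and the Sox9 KO arrays lay close together, with an SD of 0.09. The difference was -1.21 (SE 0.22, 95% interval -1.71 to -0.71, adjusted p = 0.196), a signal 2.31-fold lower in Sox9 KO (95% interval 1.63 to 3.27). It ranged from -1.43 to -1.0 and its adjusted p from 0.135 to 0.647 over the alternatives.

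Tgfb1 and Tgfb3 encode the other isoforms. Tgfb3 was above the bar on every array, with signals of 10.52, 10.57 and 10.60 in WT and 10.62, 10.83 and 10.50 in Sox9 KO. Its groups overlapped, and the difference was 0.09 (SE 0.14, 95% interval -0.23 to 0.41). Tgfb1 differed by -0.22 (SE 0.17, 95% interval -0.61 to 0.17) and lay above the bar on 1 array only.

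The BMP ligands were dim, and none lay above the bar on more than 1 array. Bmp3, an atypical BMP that opposes other BMPs, had signals of 6.69, 7.00 and 7.94 in WT and 6.16, 6.55 and 6.29 in Sox9 KO. WT and Sox9 KO did not overlap, and the difference was -0.88 (SE 0.31, adjusted p = 0.448). Its highest signal was on WT replicate 3, the array with the high ER-positive luminal markers, and without that array the difference was -0.51. Most ER-positive luminal cells carry Sca1 and are removed by this sort, and their part in this result was not tested. Bmp4, a BMP ligand made in many tissues, had signals of 4.75, 4.52 and 5.29 in WT and 5.35, 5.59 and 5.38 in Sox9 KO. These groups did not overlap by a narrow margin, and the difference was 0.59 (SE 0.21, adjusted p = 0.452), at signals far below the bar on every array.

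Bmp2 differed by as much as Bmp4 but with far more spread. Its signal was 6.89 on Sox9 KO replicate 3, the array with the high fibroblast markers, and between 4.75 and 5.75 on the other 5 arrays. The difference was 0.59 (SE 0.42) and only 0.11 without Sox9 KO replicate 3. Bmp5, Bmp6 and Bmp7 differed by 0.10, 0.06 and -0.20, with SEs of 0.16, 0.19 and 0.25 and overlapping groups.

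The activin and inhibin subunits did not differ beyond the spread between animals. Inhbb, the activin beta-B subunit, was above the bar on every array, with signals of 9.19, 9.19 and 9.44 in WT and 8.48, 9.46 and 9.83 in Sox9 KO. The WT arrays lay between the lowest and the highest Sox9 KO arrays, and the difference was -0.02 (SE 0.32, 95% interval -0.76 to 0.72). Without Sox9 KO replicate 1, the lowest array, it was 0.37. Inhba, the beta-A subunit, had signals of 4.46, 4.47 and 4.81 in WT and 5.20, 4.50 and 4.66 in Sox9 KO, all below the bar. Its difference was 0.21 (SE 0.21, 95% interval -0.28 to 0.69). Inha, the inhibin alpha subunit, differed by -0.06 (SE 0.20), also below the bar.

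**Figure D3:**
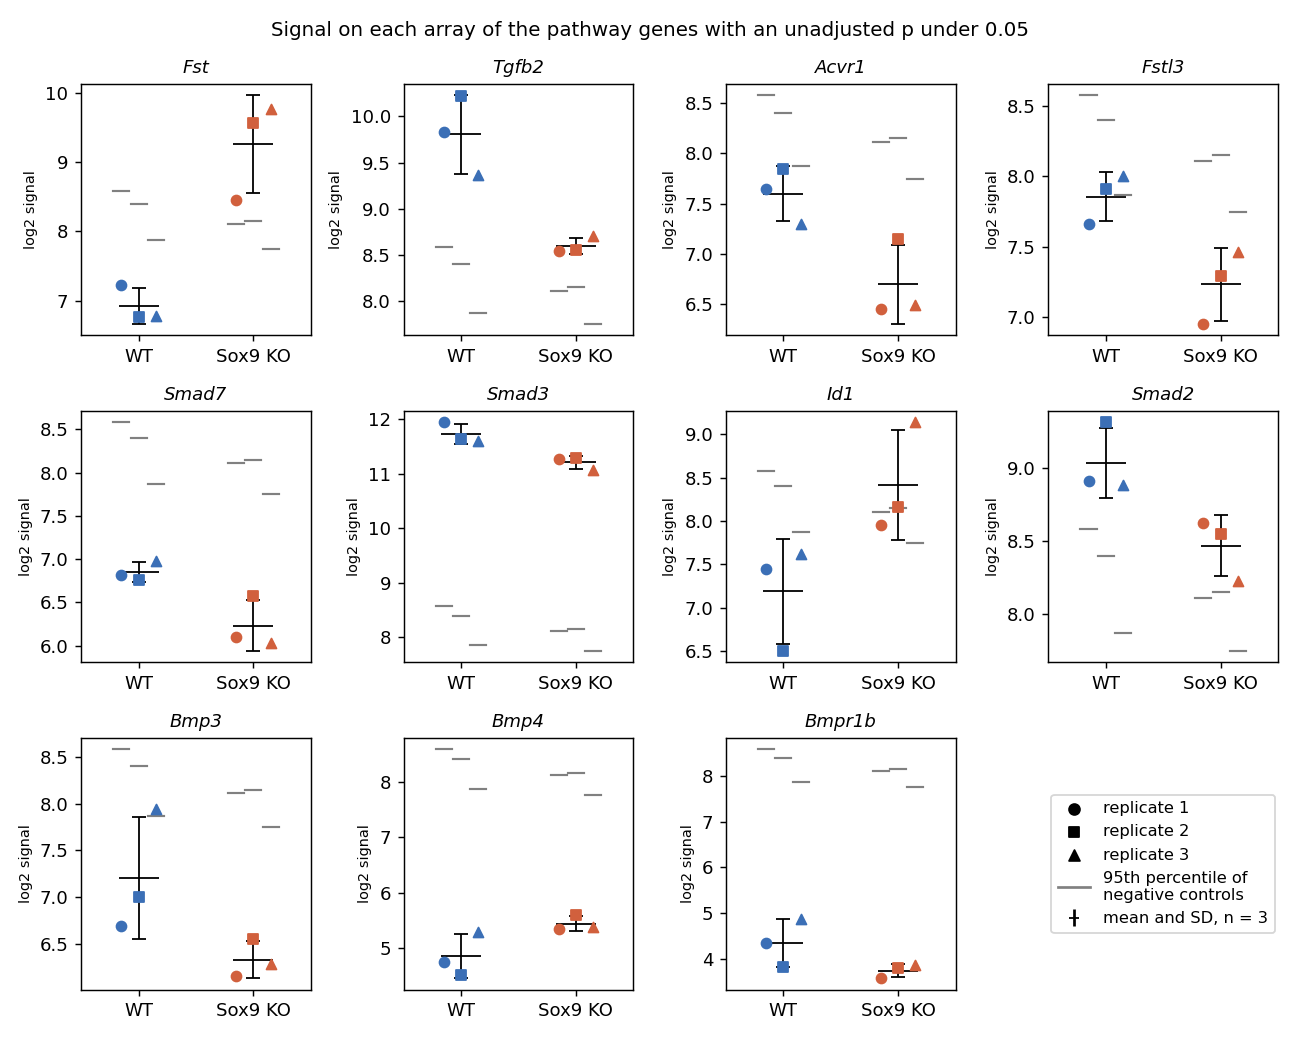
Log2 signal on each array (vertical axes, a separate scale for each gene) of the 11 genes with an unadjusted p under 0.05, with symbols for the replicates, black lines for mean and SD (n = 3) and grey lines for the 95th percentile of the negative controls of the same array. Fst crosses the grey lines between the groups, Tgfb2, Smad2 and Smad3 lie above them on all 6 arrays, and Acvr1, Smad7, Bmp4 and Bmpr1b lie below them on all 6.

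Of the 11 receptors, 8 had a lower and 3 a higher mean in Sox9 KO. Their median difference was -0.22, or -0.10 without Sox9 KO replicate 1, and 2 of the 11 had an unadjusted p under 0.05, against 9.26% of all probe sets. Acvr1 encodes the type I receptor ALK2, through which BMPs signal and to which activin also binds. Its signal was 7.65, 7.84 and 7.30 in WT and 6.45, 7.15 and 6.49 in Sox9 KO. Each Sox9 KO signal lay below each WT signal, and the difference was -0.90 (SE 0.23, 95% interval -1.44 to -0.36, adjusted p = 0.315). All 6 signals lay below the bar.

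Bmpr1b, a BMP type I receptor, had signals of 4.35, 3.81 and 4.86 in WT and 3.57, 3.79 and 3.85 in Sox9 KO. The groups overlapped slightly, and the difference was -0.60 (SE 0.26, adjusted p = 0.531), again below the bar. Its highest signal was on WT replicate 3 with the ER-positive luminal markers, and without that array the difference was -0.34.

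Acvr1b, the activin type I receptor ALK4, had signals of 7.01, 7.16 and 6.98 in WT and 6.89, 6.90 and 6.56 in Sox9 KO, which did not overlap. Its difference was small, -0.27 (SE 0.15), and its signal lay below the bar on every array. Bmpr2, the BMP type II receptor, was above the bar on every array, with signals of 10.32, 10.26 and 10.21 in WT and 9.97, 10.17 and 10.17 in Sox9 KO. The groups did not overlap, and the difference was -0.16 (SE 0.13, 95% interval -0.46 to 0.14).

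The TGF-beta receptors did not differ beyond their spread. Tgfbr1, the type I receptor, had signals of 8.30, 8.44 and 8.71 in WT and 8.35, 8.20 and 8.61 in Sox9 KO, a difference of -0.10 (SE 0.17, 95% interval -0.49 to 0.30). Tgfbr2, the type II receptor, had signals of 8.81, 8.29 and 8.24 in WT and 7.93, 7.88 and 8.82 in Sox9 KO, a difference of -0.24 (SE 0.28, 95% interval -0.89 to 0.42). Its highest Sox9 KO signal was on replicate 3 with the fibroblast markers, and without that array the difference was -0.54 (adjusted p = 0.357, with a range of 0.357 to 0.984 over the alternatives). Without WT replicate 1, which had the highest WT signal, the difference was -0.05, and without WT replicate 2 or 3 it was -0.31 and -0.34. Without Sox9 KO replicate 1 or 2 it was -0.10 and -0.07. Tgfbr3, the co-receptor betaglycan, was above the bar on every array and differed by 0.23 (SE 0.19). The activin type II receptors Acvr2a and Acvr2b differed by -0.37 (SE 0.26) and 0.47 (SE 0.22), Acvr1c, or ALK7, by 0.18 (SE 0.23), and Bmpr1a by -0.22 (SE 0.22), all 4 below the bar with overlapping groups.

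Of the 8 Smads, 3 had an unadjusted p under 0.05, all 3 lower in Sox9 KO, where 4.99% of all probe sets were. Smad3, which carries activin and TGF-beta signals to DNA, was far above the bar, with signals of 11.94, 11.63 and 11.60 in WT and 11.26, 11.29 and 11.06 in Sox9 KO. The groups did not overlap. The difference was -0.52 (SE 0.15, 95% interval -0.87 to -0.17, adjusted p = 0.37), a 1.43-fold lower signal. Smad2, its partner in the same arm, had signals of 8.91, 9.31 and 8.88 in WT and 8.62, 8.55 and 8.23 in Sox9 KO. These groups did not overlap either, and the difference was -0.57 (SE 0.18, 95% interval -0.98 to -0.16, adjusted p = 0.396), a 1.48-fold lower signal. Smad7, an inhibitory Smad that TGF-beta induces as feedback, had signals of 6.82, 6.76 and 6.98 in WT and 6.10, 6.57 and 6.03 in Sox9 KO. All lay below the bar, the groups did not overlap, and the difference was -0.62 (SE 0.18, adjusted p = 0.364).

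The Smads of the BMP arm and the shared Smad4 did not reach an unadjusted p under 0.05. Smad4 had signals of 10.63, 10.71 and 10.86 in WT and 10.87, 10.91 and 10.87 in Sox9 KO. The groups were apart by the last printed digit, and the difference was 0.15 (SE 0.13, 95% interval -0.15 to 0.45). Smad1 and Smad5, both above the bar on every array, differed by -0.04 (SE 0.16) and -0.30 (SE 0.17). Smad6, the inhibitor of the BMP arm, differed by -0.15 (SE 0.16) and Smad9 by 0.04 (SE 0.14), both below the bar. Whether the differences of Smad2 and Smad3 exceed those of Smad1 and Smad5 was not tested.

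The 3 Id genes each had a higher mean in Sox9 KO, and Id1 had an unadjusted p under 0.05. Id1 had signals of 7.45, 6.50 and 7.62 in WT and 7.95, 8.16 and 9.14 in Sox9 KO. Each Sox9 KO signal lay above each WT signal, and the difference was 1.23 (SE 0.38, 95% interval 0.34 to 2.11, adjusted p = 0.396). The signal lay below the bar on every WT array and above it on 2 Sox9 KO arrays, so no fold is given. The highest signal was on Sox9 KO replicate 3 with the fibroblast markers, and without that array the difference was 0.87. Without WT replicate 2, which had the lowest Id1 signal, the difference was 0.88. The range without single arrays was 0.87 to 1.46. Fibroblasts lack EpCAM, on which the cells were sorted, and their part in this result was not tested.

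Id2 was above the bar on every array, with signals of 8.63, 9.03 and 8.85 in WT and 8.97, 9.21 and 9.20 in Sox9 KO. The groups overlapped, and the difference was 0.29 (SE 0.15, 95% interval -0.07 to 0.65). Id3 had signals of 6.28, 5.53 and 7.08 in WT and 5.92, 6.94 and 7.16 in Sox9 KO, below the bar, with a difference of 0.38 (SE 0.44, 95% interval -0.64 to 1.40). It was -0.01 without WT replicate 2, so the sign of Id3 rests on that array.

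Other genes of the pathway were followed on a list of 73 genes, also chosen with earlier results of these data known. Of these, 69 were measured. An unadjusted p under 0.05 was reached by 12 of the 69, 9 lower and 3 higher in Sox9 KO, or 17.4% against 9.26% of all probe sets, while 0 passed the adjusted threshold. The count was 7 without WT replicate 2, against 5.63% of all probe sets, and 7 without WT replicate 3, against 8.57%. Among 19 other ligands and 20 other extracellular regulators 1 each reached it, and all 19 of these ligands and 13 of these 20 regulators lay below the bar on every array. Of the 15 other intracellular regulators 6 reached it, all 6 lower in Sox9 KO. Of 7 other receptors and co-receptors 3 reached it, Rgma with a higher and Acvrl1 and Amhr2 with lower signals in Sox9 KO. Of 8 other target genes 1 did, Cdkn2b, which encodes a cell cycle inhibitor and was higher. Acvrl1, Amhr2 and Cdkn2b lay below the bar on every array, so their signals could not be separated from background. In all, 5 of these 7 receptors and 6 of these 8 target genes lay below it on every array. Of those 15 regulators, 10 lay above the bar on every array and 1 below it on every array. The spread over the roles was not tested. With the dimmer probe sets left out, 8 of the other pathway genes reached an unadjusted p under 0.05, and 12.5% of the probe sets that stayed did. How many of the other pathway genes stayed was not counted, so no share is given for them.

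The intracellular regulator with the smallest p was Skil, which encodes SnoN, a repressor of Smad-driven transcription that TGF-beta itself induces. Its signal was 9.07, 9.60 and 9.55 in WT and 8.57, 8.67 and 8.63 in Sox9 KO. The Sox9 KO arrays lay close together and below every WT array, and the difference was -0.78 (SE 0.17, 95% interval -1.18 to -0.39, adjusted p = 0.249), a 1.72-fold lower signal. Smurf2, a ubiquitin ligase that acts on Smads and receptors, had signals of 9.59, 9.64 and 9.34 in WT and 9.07, 9.05 and 8.99 in Sox9 KO. Its groups did not overlap, and the difference was -0.49 (SE 0.14, adjusted p = 0.361). Tgif1, a Smad corepressor, had signals of 11.37, 11.40 and 11.35 in WT and 10.84, 11.04 and 11.04 in Sox9 KO, again without overlap, and differed by -0.40 (SE 0.13, adjusted p = 0.407).

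The rest of the 6 were named after their values were seen. Smurf1, a relative of Smurf2, differed by -0.36 (SE 0.13) and the deubiquitinase Usp15 by -0.33 (SE 0.13), both with groups that did not overlap. Pmepa1, an inhibitor of Smad signalling that TGF-beta induces, had signals of 12.48, 12.32 and 12.52 in WT and 11.48, 11.66 and 12.39 in Sox9 KO. Sox9 KO replicate 3 lay within the WT range, and the difference was -0.60 (SE 0.24), or -0.87 without that array. All 6 of these genes lay above the bar on every array.

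**Figure D4:**
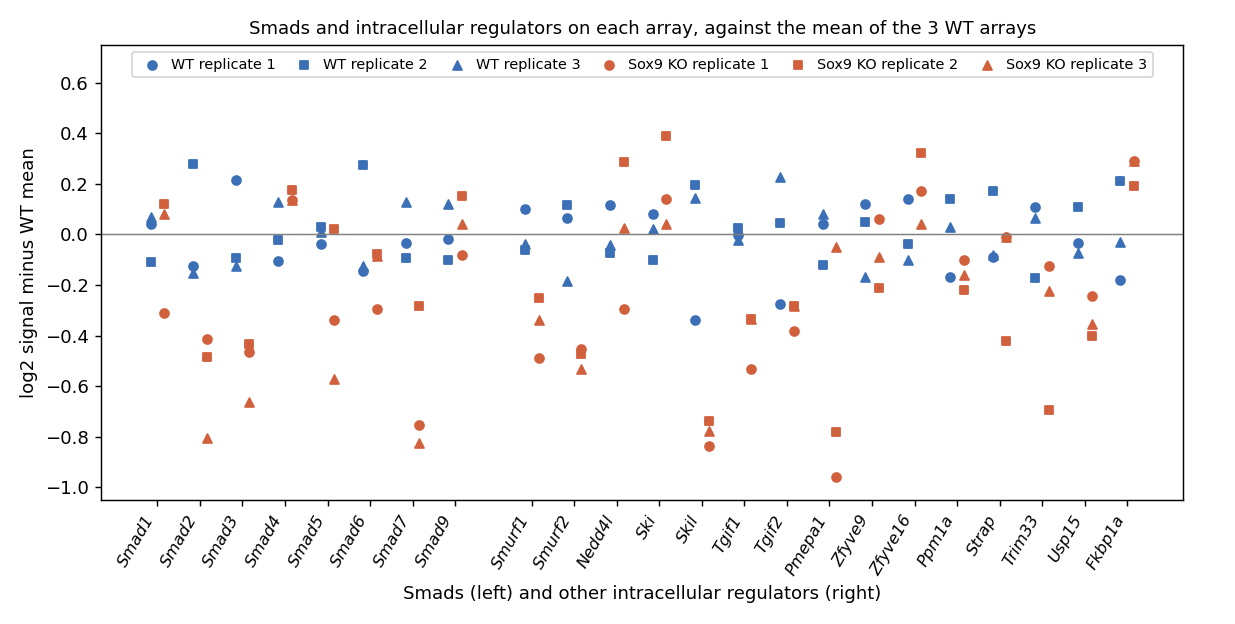
Log2 signal minus the mean of the 3 WT arrays (vertical axis) for the 8 Smads and the 15 other intracellular regulators, with a symbol for each array. For Smad2, Smad3, Smad7, Smurf1, Smurf2, Skil, Tgif1, Tgif2 and Usp15 the 3 Sox9 KO arrays lie below every WT array, and for Pmepa1 Sox9 KO replicate 3 lies within the WT range.

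Outside the cell, 3 further genes were among the 6 with the smallest p. Rgma, a membrane-anchored BMP co-receptor, had signals of 9.60, 9.54 and 9.47 in WT and 10.05, 10.54 and 9.74 in Sox9 KO, above the bar on every array. The groups did not overlap, and the difference was 0.57 (SE 0.21, adjusted p = 0.457). Chrdl2, a chordin-like BMP binder, had signals of 6.23, 7.43 and 6.65 in WT and 6.0, 4.82 and 5.96 in Sox9 KO, all below the bar, a difference of -1.18 (SE 0.39, adjusted p = 0.423). Bmp15, known for its part in the ovary, had signals between 3.94 and 5.06, far below the bar on every array, and a difference of 0.63 (SE 0.19).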

How the data were processed

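The 6 arrays were 3 WT and 3 Sox9 KO samples, grouped by their labels. Scans went through Affymetrix Expression Console and then Transcriptome Analysis Console, and the authors deposited 1 log2 signal for each probe set and array. How background was removed and signals normalized is not given in the sources used here. The log2 scale was read from the range of the values. Of 28846 probe sets, 6640 array controls were left out, which left 22206. The platform annotation, updated by gene identifier against RefSeq genes of GRCm38.p6, gave 1 symbol to 19572 and several to 0. Sox9 KO was tested against WT in R 4.3.3 by lmFit and eBayes of limma 3.58.1 with no covariates and two-sided p-values, adjusted by Benjamini-Hochberg over all 22206 at a threshold of 0.05. The fit was tested on simulated data. The table holds no detection calls, so the 95th percentile of the negative controls of each array served as a bar, and "at least" folds set the brighter group's mean against the bar, or against the dimmer signal where that was higher. Low signals are compressed, and the number of arrays limits the precision.

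The members and lists were chosen with earlier results of these data known, so no test was made over a list. Described in full were the genes with an unadjusted p under 0.05, with groups that did not overlap or with a difference over 1, besides Sox9 and the pathway's main ligands, receptors, Smads and Id genes, and the 6 other pathway genes with the smallest p. Promoter sequences were taken from RefSeq, GRCm38.p6. As alternatives, values were quantile normalized or median centred, the dimmer probe sets or each array in turn were left out, probe sets of a gene were averaged, and the fit was run with a trended and robust variance, with array weights, with a replicate block and as the methods' t-test.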

Additional observations from a re-analysis of the deposited data

How the results depend on the processing

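Of 643 recomputed differences of single genes, 624 kept their sign and their side of the adjusted threshold. In the full set of arrays the sign turned for Smad9 with median centring (-0.01) and with array weights for Inha (0.02), Grem1 (-0.01) and Smad1 (0.00). When single arrays were left out, ranges crossed zero for Inhbb (-0.30 to 0.37), Inha (-0.16 to 0.12), Tgfb3 (-0.00 to 0.16), Bmp6 (-0.06 to 0.25), Nog (-0.02 to 0.28), Grem1 (-0.11 to 0.15), Tgfbr1 (-0.21 to 0.02), Smad1 (-0.12 to 0.10), Smad9 (-0.02 to 0.10) and Id3 (-0.01 to 0.77). Fst was between 2.08 and 2.74.

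The number of pathway genes with an unadjusted p under 0.05 was 9 to 11 without single arrays, against 5.63% to 12.6% of all probe sets. With the methods' t-test it was 8, of which 1 was higher in Sox9 KO, against 7.75% of all probe sets. The number past the adjusted threshold was 0 to 1 without single arrays (1 without Sox9 KO replicate 1). The median difference of the pathway genes was -0.21 over the 27 that stayed once the dimmer probe sets were left out, where fewer genes entered. Other pathway genes at an unadjusted p under 0.05 numbered 6 of 69 with the methods' t-test, against 7.75% of all probe sets. Without single arrays they numbered 7 to 11, against 5.63% to 12.6% of all probe sets.

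Over all probe sets, the number past the adjusted threshold was 0 with the replicate block, 0 with the methods' t-test and 0 to 20 without single arrays. The number over 2-fold with an unadjusted p under 0.05 was 145 with the methods' t-test and 213 to 578 without single arrays. The Sox9 difference was -4.18 with the replicate block (adjusted p = 0.0505) and with the methods' t-test (adjusted p = 0.467), and -4.42 to -3.86 without single arrays, with an adjusted p above 0.05 without WT replicate 1, 2 or 3. The labels do not say that replicate numbers pair the animals. Deviations of arrays with the same number correlated at 0.12, -0.03 and 0.03, so the numbers were not taken as pairs. With the replicate block 11 pathway genes had an unadjusted p under 0.05, against 9.88% of all probe sets. The cause of these changes was not tested.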
